A study of Mus musculus with 2 samples.

Results

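*Stra8* and 8 genes of the retinoic acid pathway, namely *Rara*, *Rarb*, *Rarg*, *Rxra*, *Rxrb*, *Cyp26b1*, *Aldh1a1* and *Aldh1a2*, were examined by RNA-seq in whole testes of 9-day-old (P9) mice. They were picked by gene symbol and make up 9 of the 39695 gene entries measured. All 9 were found by their Ensembl identifiers. The filter on low values asked for an average RPKM of 1 or more across the libraries, and was passed by 8 of them and by 14831 entries in all, and *Rarb* was the one below it. RPKM is the number of reads counted on a gene per kilobase of its length and per 1000000 counted reads. The study compared 1 library from control testes with 1 library from *Bcas2*F/-;*Vasa-Cre* testes, to ask what is lost when the splicing factor BCAS2 is removed from germ cells. Control males were *Bcas2*F/-, with a floxed and a deleted *Bcas2* allele and no Cre. The mutant males carried the same alleles plus *Vasa-Cre*, a transgene whose recombinase works in germ cells from before birth, so the somatic cells of these testes keep the floxed allele. The labels give C57BL/6 as the strain, while the study's methods name a mixed background of which C57BL/6 is a part. How many mice went into a library is not stated in the sources used here. Since each genotype has a single library, none of the differences below could be checked against replicate libraries and no test between genotypes was run. In replicate P9 testes, the study's real-time RT-PCR found similar mRNA levels of *Stra8*, *Ddx4*, *Kit*, *Dazl*, *Nanos2*, *Sohlh1* and *Sohlh2* in both genotypes. It found the meiosis genes *Dmc1*, *Sycp1*, *Sycp3* and *Smc1b* lower in the mutant.

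Retinoic acid is made from vitamin A. Retinol is oxidised to retinaldehyde and then, by the retinaldehyde dehydrogenases ALDH1A1, ALDH1A2 and ALDH1A3, to retinoic acid. Enzymes of the CYP26 family break it down. In the nucleus it binds retinoic acid receptors (RARA, RARB and RARG), which pair with retinoid X receptors (RXRA, RXRB and RXRG) and sit on DNA at direct repeats of a short half-site. In the juvenile testis retinoic acid drives the step from undifferentiated to differentiating spermatogonia and later the start of meiosis. *Stra8* (stimulated by retinoic acid gene 8) is the best known gene switched on in germ cells at both steps, and its protein is required for meiotic entry.

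The half-sites in the promoters of these genes are shown first, since receptor binding to such repeats is how retinoic acid acts on a gene. RefSeq promoter windows on GRCm38.p6 run from 250 bases before to 50 bases after an annotated transcript start. The half-sites searched on both strands were AGGTCA or AGTTCA or GGTTCA or GGGTCA, and direct repeats were counted with 1, 2 or 5 bases between the half-sites (DR1, DR2 and DR5). All 9 genes had a window, 16 windows in all, and 6 of the 9 genes had a half-site in at least 1 of them. The windows of *Rxrb*, *Cyp26b1* and *Aldh1a2* held none. Only exact matches were counted, so half-sites with a variant base, and repeats that contain them, were not searched. *Stra8* had 2 half-sites and no repeat of this exact kind. *Rarb* had 3, of which 2 formed a DR5, the only repeat in the 16 windows. Outside the 9 genes, *Cyp26a1*, which encodes another retinoic acid hydroxylase, had a DR5 on the strand opposite to the gene, and it was the only one of 50 other pathway genes with a window to hold a DR5. *Bco1*, which encodes a carotene-cleaving enzyme, held a DR1. A half-site was present in 43.7% of 32851 promoter windows of the genome and at least 2 in 13.1%, so a pair such as that of *Stra8* is not rare. A DR5 was present in 0.0974% of them, or 32 windows. The stretches below are 30 bases long, written 5′ to 3′ on the strand of the gene, with the half-sites in capitals. Their ends are counted from the transcript start, where 0 is the first transcribed base. They are kept short because annotated exons of GENCODE M21 cover all 250 bases before the start in *Stra8* and *Rarb* and 10 of them in *Cyp26a1*.
Stra8, −206 to −177, chr6:34920742-34920771, plus strand: gatggggtgaaaAGGTCAtcttgctccttc
Stra8, −50 to −21, chr6:34920898-34920927, plus strand: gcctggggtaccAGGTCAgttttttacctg
Rarb, −54 to −25, chr14:16575501-16575530, minus strand: gGGTTCAccgaaAGTTCActcgcatatatt
Cyp26a1, −33 to −4, chr19:37697775-37697804, plus strand: aTGAACTttgggTGAACTaatttgtctgac
The *Stra8* half-sites lie on the strand of the gene and far apart, whereas those of *Rarb* and *Cyp26a1* are 5 bases apart. A match of these letters is a description and not a shown binding site, and a window without one says nothing about the receptors.

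**Figure D1:**
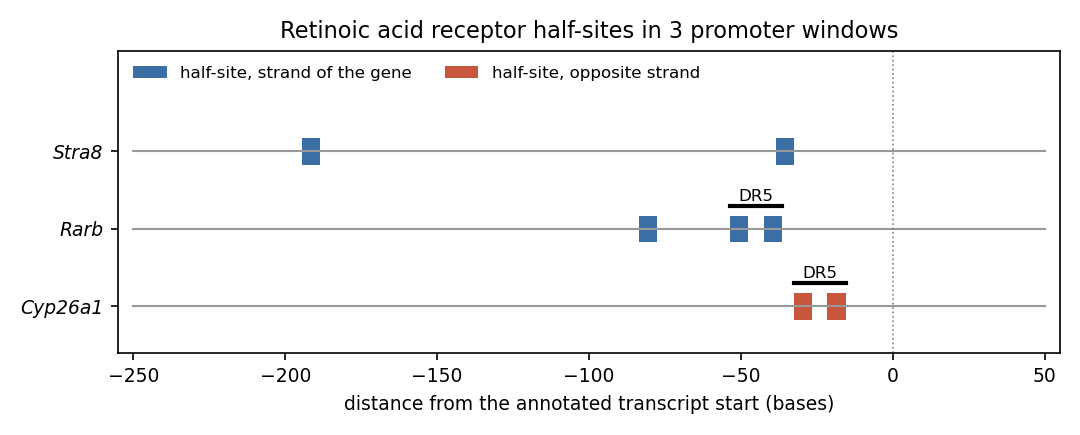
Half-sites in the promoter windows of *Stra8*, *Rarb* and *Cyp26a1*, plotted by distance in bases from the annotated transcript start (dotted line), in blue on the strand of the gene and in red on the opposite strand. *Stra8* has 2 half-sites that form no repeat, and the bars labelled DR5 mark the direct repeats of *Rarb*, from −53 to −37, and *Cyp26a1*, from −32 to −16.

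The targeted gene was examined before the others. *Bcas2*, on chromosome 3, was at 39.5 RPKM in the control and 25.7 RPKM in the mutant library, a log2 ratio of −0.60. Here and below a log2 ratio compares RPKM + 1 between the mutant and the control library, and the added 1 understates the difference of genes with low values. For most genes the RPKM values could be turned back into whole reads. The library totals that the values imply are 19918750 reads for the control and 19331687 for the mutant. *Bcas2* had 1410 and 888 reads. From them a 95% Clopper-Pearson interval of the log2 ratio without the added 1 was computed, which ran from −0.75 to −0.50. Such intervals cover counting error only, not the spread between mice or libraries. Over all 14831 genes that passed the filter, log2 ratios had a median of 0.02 and an SD of 0.26.

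*Stra8* was the gene of the 9 with the largest difference between the libraries. It lies on chromosome 6 from 34920163 to 34939344 of GRCm38 (GENCODE M21), on the plus strand, and reached 87.2 RPKM (2155 reads) in the control and 56.8 RPKM (1362 reads) in the mutant. The mutant level was 65.1% of the control level. The log2 ratio was −0.61, with a counting interval from −0.72 to −0.52. On its measured value *Stra8* was lower by more than 1.5-fold (a log2 ratio beyond 0.585 in size), although its counting interval reached inside this threshold. The other 7 genes that passed the filter were not past the threshold in either direction. Of all 14831 genes, 1.69% (251) were lower by more than 1.5-fold and 1.57% (233) were higher. Past 2-fold, 0.378% of genes were lower and *Stra8* was not among them. In the study's real-time RT-PCR, *Stra8* mRNA was similar in both genotypes. At the protein level, the study's discussion describes STRA8 as much lower in mutant testes, without naming an age there. A log2 ratio as low as that of *Stra8* or lower was found for 218 of the 14831 genes. Genes read deeply spread less, with an SD of 0.18 among the 8670 genes at a mean of at least 10 RPKM, and 49 of these (0.565%) were as low as *Stra8*. The median log2 ratio of the 8 genes was −0.07, with 5 below 0 and 3 above.

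**Figure D2:**
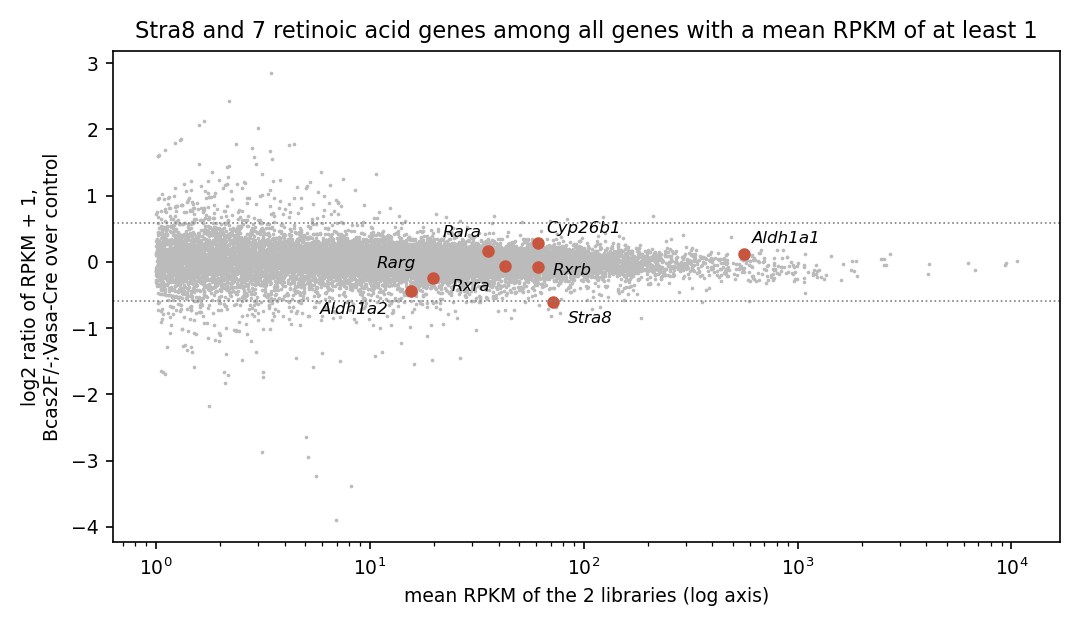
Log2 ratio of RPKM + 1 (*Bcas2*F/-;*Vasa-Cre* over control) against mean RPKM of both libraries on a log axis, with each gene that passed the filter in grey and *Stra8* and 7 retinoic acid genes in red. *Stra8* is the only red point beyond the dotted lines at 1.5-fold, and the other 7 lie inside the grey cloud.

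Among the receptors, *Rara* and *Rarg* differed in opposite directions and the RXR genes were nearly level. *Rara* (chromosome 11, 98927818 to 98974942, plus strand) encodes the receptor best known from Sertoli cells. It was at 33.6 RPKM in the control and 37.7 RPKM in the mutant library, with 1459 and 1589 reads. Its log2 ratio was 0.16, and its interval, from 0.06 to 0.27, lay above 0. *Rarg* (chromosome 15, 102234938 to 102257517, minus strand), the receptor known from differentiating spermatogonia, was at 21.4 RPKM in the control and 18.0 RPKM in the mutant library. These values rest on 530 and 431 reads. Its log2 ratio was −0.24 with an interval from −0.44 to −0.07, so counting error alone did not span 0.

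*Rarb* (chromosome 14, 16430839 to 16819156, minus strand), a receptor gene known as a classic retinoic acid target itself, was close to the floor. It had 0.364 RPKM (11 reads) in the control and 0.443 RPKM (13 reads) in the mutant library. The log2 ratio was 0.08, with an interval from −0.99 to 1.59, and a difference was not detectable at this depth. In addition, 1793 exonic bases of *Rarb* overlap *Top2b* on the opposite strand, a gene at 111 and 129 RPKM. The library kit is not one that marks strand and the counting setting is not given, so reads of *Rarb* and *Top2b* on these bases cannot be told apart. Summed over the RAR genes, the level was 55.4 RPKM in the control and 56.1 RPKM in the mutant library. *Rara* made up 60.7% of this sum in the control and 67.2% in the mutant library, and *Rarg* 38.7% and 32.0%. The sum was thus near the same in both libraries, with more of it from *Rara* in the mutant.

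The partner receptors differed little. *Rxra* (chromosome 2, 27676440 to 27762957, plus strand) was at 44.0 RPKM (1951 reads) and 42.0 RPKM (1810 reads). Its log2 ratio was −0.06, with −0.16 and 0.03 as the interval's ends. *Rxrb* (chromosome 17, 34031812 to 34038399, plus strand) was at 62.9 RPKM (1562 reads) and 59.6 RPKM (1437 reads). Its log2 ratio was −0.08, with −0.18 and 0.03 as the ends. Both intervals included 0. *Rxrg*, the paralog seen mainly in muscle and brain, had 0.217 RPKM (8 reads) and 0.0279 RPKM (1 read). *Rxrb* supplied 58.7% of the RXR sum in the control and 58.6% in the mutant library, and *Rxra* supplied 41.1% and 41.3%.

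The genes that make retinoic acid differed in opposite directions. *Aldh1a1* (chromosome 19, 20492715 to 20643465, plus strand) encodes the retinaldehyde dehydrogenase known as the main one of Sertoli cells. It had the highest level of the 9 genes, 538 RPKM (21992 reads) in the control and 585 RPKM (23228 reads) in the mutant library. Its log2 ratio was 0.12 with a narrow interval from 0.10 to 0.15. *Aldh1a2* (chromosome 9, 71215789 to 71296243, plus strand), whose enzyme is known from germ cells, was at 18.1 RPKM (816 reads) and 13.1 RPKM (573 reads). Its log2 ratio of −0.44, with an interval from −0.62 to −0.31, was the next lowest after *Stra8*, and 517 of the 14831 genes were as low. *Aldh1a2* therefore did not pass 1.5-fold on its measured value, although its counting interval reached past it. The ratio of *Aldh1a1* to *Aldh1a2* was 29.7 in the control and 44.7 in the mutant library. *Aldh1a3*, the remaining paralog with this activity, was at 8.21 and 8.78 RPKM. Of the summed level of the 3 genes, *Aldh1a1* made up 95.3% and 96.4% and *Aldh1a2* 3.21% and 2.16%.

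*Aldh1a7*, a close relative of *Aldh1a1*, was at 9.74 and 11.2 RPKM. Its transcript matched that of *Aldh1a1* at 89.1% identity over 2072 bases, the closest match of any of the 9 genes to another gene. None of the 9 had another gene at 90% identity or more over 100 bases. The level of *Aldh1a7* is uncertain where reads could have been assigned to either gene.

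*Cyp26b1* (chromosome 6, 84571414 to 84593908, minus strand) encodes the hydroxylase that degrades retinoic acid in the fetal and juvenile testis. It was higher in the mutant library, at 67.3 RPKM (6153 reads) against 55.2 RPKM (5196 reads) in the control. The log2 ratio of 0.28, with an interval from 0.23 to 0.34, was the highest of the 9 genes and did not reach 1.5-fold. *Cyp26b1* supplied 96.8% of the CYP26 sum in the control and 98.0% in the mutant library. *Cyp26a1* had 1.67 and 1.31 RPKM, and *Cyp26c1* 0.144 and 0.0296 RPKM. Clearance enzymes were thus almost entirely *Cyp26b1* at the RNA level in both libraries.

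**Figure D3:**
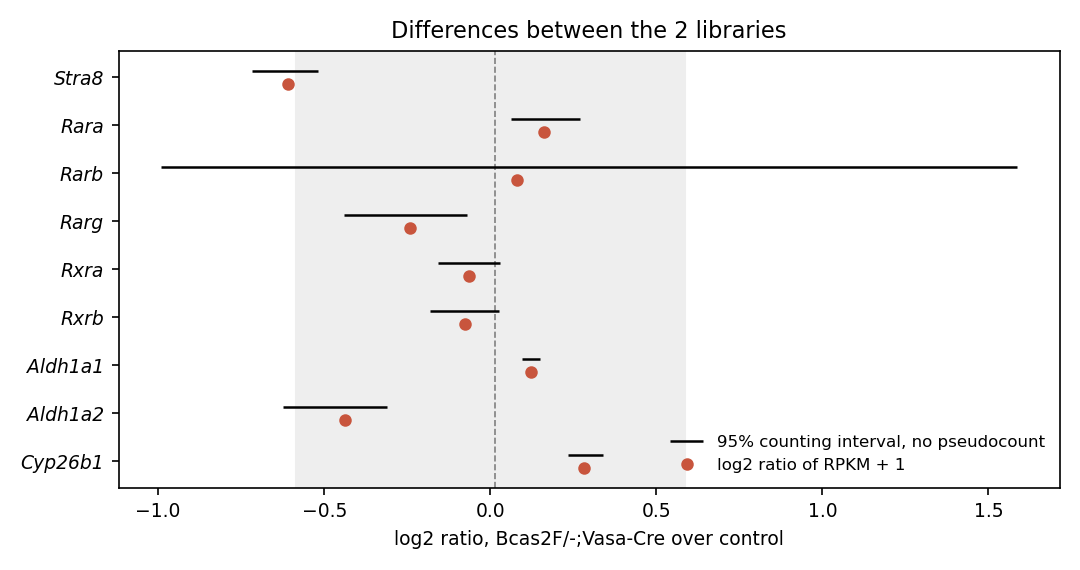
Log2 ratios (*Bcas2*F/-;*Vasa-Cre* over control) of the 9 genes, with red points for the ratio of RPKM + 1 and black lines for the 95% counting interval of the ratio without the added 1. The grey band spans 1.5-fold in either direction and the dashed line marks the median of all genes, 0.02; *Stra8* lies left of the band, and *Rarb*, with 11 and 13 reads, has the widest interval.

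The order of levels within a library was read per length. In the control it ran *Aldh1a1*, *Stra8*, *Rxrb*, *Cyp26b1*, *Rxra*, *Rara*, *Rarg*, *Aldh1a2* and *Rarb*, and no neighbours had overlapping counting intervals. In the mutant library *Cyp26b1* and then *Rxrb* came ahead of *Stra8*. There *Rxrb* and *Stra8* were not separated, with Poisson intervals of 56.6 to 62.8 RPKM and 53.8 to 59.9 RPKM. The control value of *Stra8* had an interval from 83.6 to 91.0 RPKM, which did not overlap that of the mutant. The order depends on the gene length the authors divided by. Per base of the longest GENCODE transcript, *Stra8* stood at 60.0 in the control and 39.1 in the mutant library, *Cyp26b1* at 58.0 and 70.8, and *Rxrb* at 29.9 and 28.3. On that scale *Rxrb* fell behind *Cyp26b1* in the control and behind *Stra8* in the mutant library. In both libraries *Rara* came before *Rxra*, and *Aldh1a2* before *Rarg*. Counting intervals were not compared on that scale, so close neighbours, such as *Stra8* and *Cyp26b1* in the control, may not be separated.

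**Figure D4:**
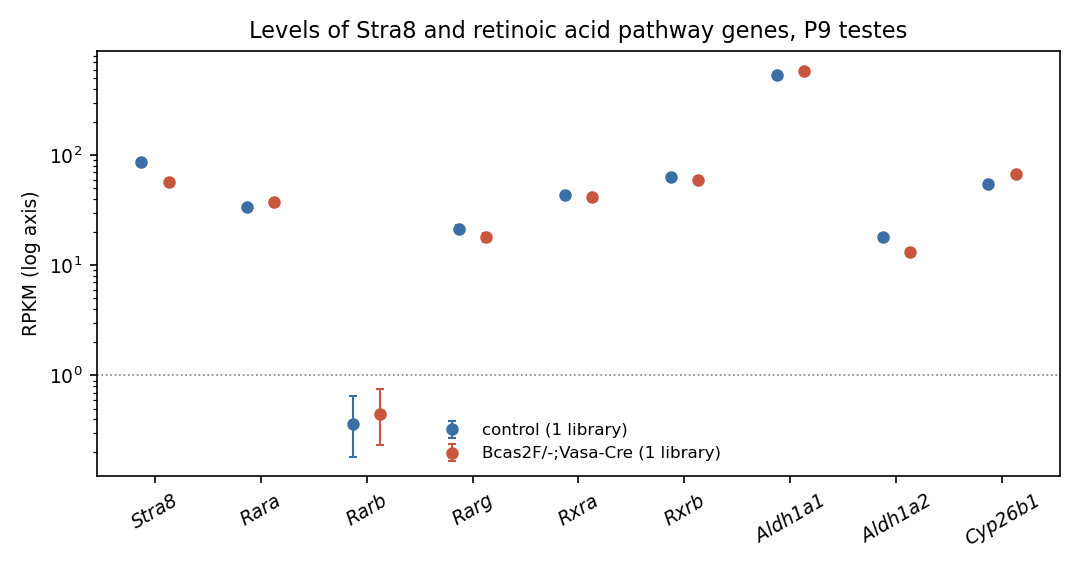
Level of each of the 9 genes in RPKM on a log axis, in the control (blue) and in *Bcas2*F/-;*Vasa-Cre* testes (red), with 95% Poisson counting intervals as error bars and a dotted line at 1 RPKM. *Aldh1a1* is the highest at 538 and 585 RPKM, *Rarb* is below the line, and *Stra8* shows the widest gap between blue and red points of the 8 genes above it.

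In whole testes, fewer cells of a type and less RNA per cell cannot be told apart. Levels of cell type markers are therefore given beside the 9 genes. The study counted cells in testes slightly older than these. Spermatogonia stained for PLZF, and basal cells stained for MVH, the *Ddx4* product, did not differ significantly in number between genotypes. MVH-positive cells in the tubule centre were apparently lost in the older mutant testes. Of 6 germ cell markers, 6 had log2 ratios below 0, from −0.95 for *Rhox13* to −0.01 for *Dppa4*, and 1 (*Rhox13*) was past 1.5-fold. Their median was −0.33 and their summed level 475 RPKM in the control and 361 RPKM in the mutant library, led by *Dazl*. Of 6 markers of undifferentiated spermatogonia, 4 were below 0 and 1 (*Nanos3*, −0.99) was past 1.5-fold, with a median of −0.27 and sums of 169 and 139 RPKM, led by *Lin28a*. Of the Sertoli cell markers, 7 of 7 that passed the filter were above 0, from 0.004 for *Fshr* to 0.36 for *Amh*, and 0 were past 1.5-fold. Their median was 0.22 and their sums 926 and 1048 RPKM, led by *Inha*, while *Rhox5* was listed at 0 in both libraries. Germ cell markers thus lay mostly on the same side of 0 as *Stra8*, *Aldh1a2* and *Rarg*, and Sertoli cell markers on the side of *Rara*, *Aldh1a1* and *Cyp26b1*. Their part in these differences was not tested. *Dazl* was counted both as a germ cell marker and, below, as a regulator upstream of *Stra8*. The study reported altered splicing of *Dazl* in mutant testes. Whether the lower *Dazl* level reflects germ cell content or this splicing change was not tested. The same limit holds for the germ cell sum that *Dazl* leads and for the ratio of *Stra8* to *Dazl*.

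The ratio of *Stra8* to a germ cell marker depended on the marker. Against *Ddx4*, the pan-germ-cell helicase gene, it was 0.900 in the control and 0.698 in the mutant library. It was also lower in the mutant library against *Dppa4* (10.95 and 7.17), *Tex101* (1.87 and 1.43), *Dazl* (0.529 and 0.456) and *Mael* (0.617 and 0.571). Against *Rhox13* it was higher in the mutant library, at 5.19 and 6.91. Outside that list, the ratio to *Kit*, the receptor gene of differentiating spermatogonia, was 2.22 and 1.89, and that to *Nanos3* was 5.74 and 7.94. *Rarg* had nearly the same ratio to *Ddx4* in both libraries, 0.221 and 0.220, whereas that of *Aldh1a2* was 0.187 and 0.161. The ratio of *Aldh1a1* was 3.78 and 3.81 against *Wt1* and 18.9 and 16.7 against *Sox9*, both Sertoli cell genes.

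Of the other markers, those of Leydig cells summed to 387 and 431 RPKM, led by *Hsd3b1*. Of these 6 markers, 4 were above 0 and 2 below. *Hsd3b1* itself was lower in the mutant library, at −0.17 (189 and 168 RPKM), while *Cyp17a1* was higher by more than 1.5-fold (0.68). Peritubular myoid cell markers summed to 517 and 484 RPKM, led by *Acta2*, endothelial markers to 38.6 and 36.9 RPKM, led by *Cdh5*, and macrophage markers to 47.7 and 42.4 RPKM, led by *C1qa*, with 0 genes past 1.5-fold. Blood cell genes differed more. Neutrophil markers summed to 22.3 RPKM in the control and 1.49 RPKM in the mutant library, led by *S100a9* (9.83 and 0.401 RPKM). *S100a8*, *S100a9* and *Ngp* were each below 1 RPKM in the mutant library and passed the filter only through the control. *Elane* (0.055 and 0.056 RPKM) and *Mpo* (0.271 and 0.119 RPKM) did not pass it. Red cell markers summed to 980 and 944 RPKM, led by *Hbb-bs*, but 2 of 6 were lower by more than 1.5-fold, *Slc4a1* at −3.38 (15.7 and 0.607 RPKM) and *Hbb-bt* at −1.03.

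The wider pathway was read from 6 lists with 67 genes, picked with earlier results of these data known. They include early meiosis genes, some of which the study reported as lower. Of the 67 genes, 56 passed the filter. Of these, 7 were lower by more than 1.5-fold and 0 were higher, beside the 1.69% and 1.57% of all genes given above, and their median log2 ratio was −0.04. The lower genes came from the lists of binding proteins, response genes, regulators and early meiosis genes. The lists of retinoid handling and of receptor partners held none.

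Retinoid uptake, storage and synthesis was represented by 11 of 16 genes past the filter, none beyond 1.5-fold, with a median of −0.05. The range ran from *Rbp4*, the plasma retinol carrier, at −0.34 (11.96 and 9.23 RPKM) to *Adh4*, a retinol-oxidising alcohol dehydrogenase, at 0.32 (7.18 and 9.18 RPKM). Of the list of receptor partners and coregulators, 16 of 18 genes passed the filter and none was beyond 1.5-fold. Their log2 ratios were narrow, from −0.15 for *Nr1h2*, the nuclear receptor LXR beta, to 0.21 for *Vdr*, the vitamin D receptor. Of these 16 genes, 13 were above 0, and the median was 0.10.

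Of the genes for retinoic acid binding and clearance, 4 of 5 passed the filter. *Crabp1*, which encodes a cytosolic retinoic acid binding protein, was lower by more than 1.5-fold, with 76.1 RPKM (1215 reads) in the control and 48.1 RPKM (745 reads) in the mutant library. Its log2 ratio was −0.65. The interval, from −0.80 to −0.53, reached inside 1.5-fold and overlapped that of *Stra8*. *Fabp5*, which encodes a fatty acid binding protein that also carries retinoic acid, was at 12.6 and 16.0 RPKM, a log2 ratio of 0.32, the highest of this list. The genes of this list thus did not share a direction.

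Among 8 retinoic acid response genes, 5 passed the filter, with a median of −0.37. *Sall4*, a zinc finger gene of spermatogonia, was lower at 26.6 RPKM (1003 reads) and 15.9 RPKM (582 reads), a log2 ratio of −0.71. *Gm4969*, which encodes the partner of STRA8 later named MEIOSIN, was at 2.81 RPKM (164 reads) and 1.41 RPKM (80 reads), a log2 ratio of −0.66. The ratio of *Stra8* to *Gm4969* was 31.0 in the control and 40.2 in the mutant library. *Tgm2*, a transglutaminase gene that responds to retinoic acid in many tissues, was level at 50.7 and 50.8 RPKM and was the highest of the list. Both genes of this list that were beyond 1.5-fold are known from germ cells.

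All 10 genes listed as regulators upstream of *Stra8* passed the filter, 5 below 0 and 5 above, with a median of −0.14. The list name is a heading only, and whether *Meioc* or any other gene of it acts upstream of *Stra8* was not tested. *Meioc*, which encodes a meiosis-specific RNA regulator, was at 13.97 RPKM (644 reads) and 6.75 RPKM (302 reads), a log2 ratio of −0.95. *Dmrtb1*, which encodes a factor of the switch from mitosis to meiosis, was at 29.6 RPKM (765 reads) and 16.8 RPKM (420 reads), a log2 ratio of −0.79. *Nanos2*, which encodes a repressor of *Stra8* and of meiosis in male germ cells, was the highest of the list at 0.49, on 1.01 RPKM (29 reads) and 1.83 RPKM (51 reads). Its interval, from 0.17 to 1.57, reached past 1.5-fold.

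The early meiosis genes were 10 of 10 past the filter and 10 of 10 below 0, with a median of −0.47. The lowest was *Smc1b*, a meiotic cohesin gene, with 25.6 RPKM (1031 reads) in the control and 11.3 RPKM (441 reads) in the mutant library, a log2 ratio of −1.11. *Prdm9*, which encodes the methyltransferase that marks recombination sites, had 6.34 RPKM (165 reads) and 3.33 RPKM (84 reads), a log2 ratio of −0.76. *Spo11*, the gene of the enzyme that makes meiotic DNA breaks, was the closest to 0 at −0.02, on 1.61 and 1.58 RPKM.

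**Figure D5:**
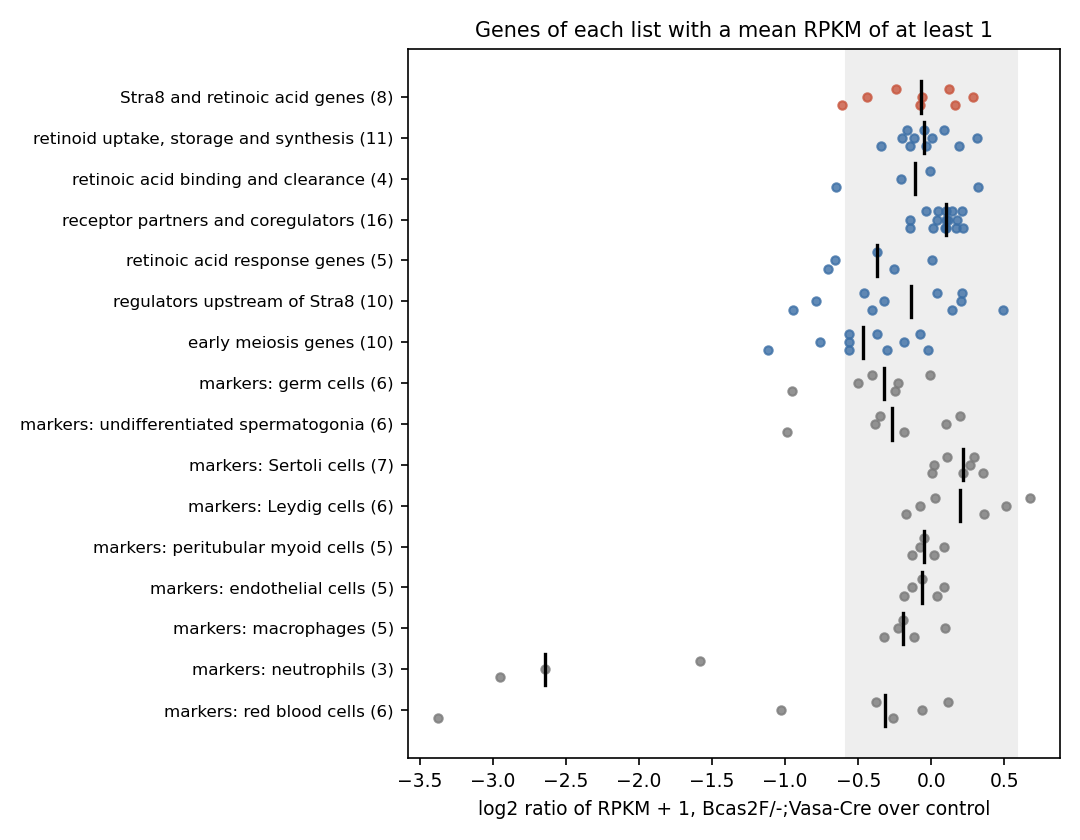
Log2 ratio of RPKM + 1 (*Bcas2*F/-;*Vasa-Cre* over control) of each gene that passed the filter, by list, with *Stra8* and the retinoic acid genes in red, the other pathway lists in blue and cell type markers in grey. Black bars are medians, the grey band spans 1.5-fold in either direction, and the numbers of genes stand in parentheses; the early meiosis genes have the lowest median of the pathway lists, −0.47.

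The protein-coding genes whose pair of levels lay nearest to that of *Stra8*, by Euclidean distance of log2(RPKM + 1) over the 2 libraries among 13003 genes, were *Hist1h2ap* (distance 0.07), *Dctpp1* (0.14), *Bub1b*, *Tex10* (0.15 each) and *Rpl39l* (0.16). *Hist1h2ap*, a replication-dependent histone gene, was at 91.4 and 56.5 RPKM. *Dctpp1*, which encodes a nucleotide pyrophosphatase, was at 85.0 and 51.6 RPKM. *Bub1b*, a spindle checkpoint gene, was at 81.9 and 62.0 RPKM, *Tex10* at 82.6 and 62.4 RPKM, and *Rpl39l*, a ribosomal protein gene expressed in germ cells, at 78.9 and 59.2 RPKM. With only 2 libraries, likeness here means a similar level and a similar difference, and nothing more.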

How the data were processed

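The authors removed adaptors and low-quality reads, aligned paired-end reads to the mouse genome (mm10 in the submitters' processing notes) with TopHat2 2.0.9, used HTSeq to count reads on genes, and deposited the result as RPKM values. Annotation release, gene lengths and strand setting are not given in the sources used here. RPKM does not correct for a change in RNA composition. Identifiers were matched to GENCODE M21 (37606 of 39695 entries). The 9 genes and all lists were chosen with earlier results of these data known. Beside *Bcas2*, the genes named were the 9, their paralogs, each other pathway gene beyond 1.5-fold, the lowest and highest of each pathway list, the 5 nearest to *Stra8*, and the gene leading each marker list. Other markers and *Bco1*, *Kit* and *Top2b* were named after their values were seen.

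Reads were recovered by writing each RPKM ratio as a ratio of whole numbers times the library ratio (1.03) and were kept where chance gave such a fit with a probability below 0.05, after tests on simulated libraries. Of 22040 genes with a value above 0 in both libraries, 94.2% gave reads. For *Bcas2*, *Rarb*, *Rarg*, *Rxra* and *Rxrb* the true numbers could be a whole multiple, which would narrow their intervals. Transcript identity came from BLAST+ 2.17.0 and statistics from scipy 1.17.1, under Python 3.11.15.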

Additional observations from a re-analysis of the deposited data

How the results depend on the processing

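Pseudocounts of 0.1 and 0.01, a median of 0 over all genes, rescaling so that RPKM summed to 1000000, no filter, a minimum mean of 5 RPKM and a threshold of 2-fold were tried. Each of the 36 single-gene values kept its sign. *Stra8* stayed lower by more than 1.5-fold under every pseudocount and scaling, with log2 ratios from −0.63 to −0.59, the last just past the threshold. At 2-fold, 0 of the 9 genes were lower. Rescaling moved *Aldh1a1* to 0.15. With pseudocounts of 0.1 and 0.01 and after rescaling, 1 other pathway gene, *Nanos2*, was higher by more than 1.5-fold. The lower pathway genes numbered 9 with the smaller pseudocounts (*Hormad1* and *Sycp1* added), 5 at a mean of 5 RPKM (without *Gm4969* and *Prdm9*), 1 at 2-fold (*Smc1b*) and 7 otherwise. Over all genes, 251 lower and 233 higher became 457 and 454 at a pseudocount of 0.1, 485 and 491 at 0.01, 356 and 434 after rescaling, 468 and 511 with no filter, 104 and 46 at a mean of 5 RPKM, and 56 and 63 at 2-fold. The order of levels per base of the longest transcript was an alternative chosen after seeing the data. No paired analysis was possible because each genotype has 1 library. Depth limits *Rarb*, at 11 and 13 reads, and the low paralogs.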
